A study of Rattus norvegicus with 8 samples.

Results

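The 7 genes described here are the clock output transcription factors Dbp, Tef, Hlf, Nfil3, Ciart, Bhlhe40 and Bhlhe41. They were taken from the count table by gene name, as 7 of its 30562 genes, and all 7 are among the 16591 genes that passed the filter on low counts. They were chosen by name with their levels in livers given atorvastatin plus hexachlorobenzene (HCB) and in livers given HCB alone already known, and that difference in level is what selected them. Their differences between those groups are therefore given as a description, without a test. Each library is whole liver of 1 rat, labelled male and Wistar, with a starting weight of 160 g, and 2 rats were sequenced in each of 4 groups. HCB, a chlorinated fungicide and persistent pollutant, was dosed by gavage in water with Tween-20 over 30 days, with 100 mg/kg on 3 days of each week. The statin atorvastatin, an inhibitor of the enzyme that limits cholesterol synthesis, was put in the drinking water over 30 days. Its daily dose is stated as 5 mg/kg, although the water recipe in the same labels amounts to more than that at the stated weight. The groups were atorvastatin plus HCB, HCB, atorvastatin, and a control group given vehicle. Light and dark alternated every 12 hours for all rats, which were killed on day 37, and the hour of killing is not given in the sources used here.

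The circadian clock is a loop of transcription factors in which Clock and Bmal1 activate genes through E-boxes, and Per and Cry proteins then repress that activation. Output factors carry the rhythm to other genes. Dbp, Tef and Hlf form the PAR bZIP family, which activates genes through D-boxes and in rodent liver is known for genes of drug and bile acid metabolism, and Nfil3 represses through the same sites. Ciart, Bhlhe40 and Bhlhe41 are repressors that act on the E-box side of the loop, and the RNA of Dbp is known for a steep daily rhythm in liver.

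Of the output factors, Dbp, Tef, Ciart and Bhlhe41 were lower in both atorvastatin plus HCB libraries than in both HCB libraries, Dbp 9.91-fold and Ciart 10.1-fold by the fitted change. Nfil3, Hlf and Bhlhe40 overlapped between these groups. Over all genes tested 34.8% did not overlap between them, 16.9% being lower with atorvastatin plus HCB. None of the 7 was called in the comparisons that the choice of genes did not use, atorvastatin against control and the HCB-labelled libraries against the unexposed ones. Of all genes tested, 0% were called in the first of these and 46.6% in the second.

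Reads assigned to genes (M stands for 1e6 reads) numbered 38.4 M to 52.0 M in the HCB-labelled libraries, those of the atorvastatin plus HCB and HCB groups, and from 29.4 M to 43.8 M in the unexposed libraries, those of the atorvastatin and control groups. Reads outside annotated exons were 7.46% to 11.4% of all in the HCB-labelled libraries and 15.3% to 34.0% in the unexposed ones, where atorvastatin replicate 1 (34.0%) and control replicate 1 (27.7%) were the highest. Multimapping reads were 19.4% of all in HCB replicate 1, against 10.7% to 12.2% in the other HCB-labelled libraries. They were 21.0% and 20.3% in replicate 1 of atorvastatin and control, against 10.4% and 13.2% in replicate 2. Hepatocyte markers summed to 112600 to 181600 CPM (counts scaled to 1e6 per normalised library) in the HCB-labelled libraries and to 78080 to 150200 CPM in the unexposed ones. The 4 Y-linked genes summed to 134.8 to 216.9 CPM in the HCB-labelled libraries but to 0.900 to 1.90 CPM in the unexposed libraries, against the label of male rats. The 5 fetal liver genes summed to 148.5 to 332.7 CPM in the HCB-labelled libraries and to 37450 to 51250 CPM in the unexposed ones. All 6 neutrophil and all 6 erythroid markers also fell in the HCB-labelled libraries relative to the unexposed ones. An effect of HCB therefore cannot be told apart from these differences in any comparison across that divide. Atorvastatin plus HCB against HCB, and atorvastatin against control, each lie on 1 side of it. On the HCB side, HCB replicate 1 had the highest fetal liver (332.7 CPM), Y-linked (216.9 CPM), erythroid (34.5 CPM) and neutrophil (3.17 CPM) sums. It also had the highest NK and T cell (40.2 CPM), B cell (4.24 CPM) and cholangiocyte (19.7 CPM) sums of that side. Its hepatocyte sum, 112600 CPM, was the lowest of that side, while its Kupffer cell, endothelial and stellate sums lay within the range of the others. The part of this in the levels of the 7 genes was not tested.

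Promoter sequences are shown first, because the E-box is the element through which the core loop acts on several of these genes. The windows are the 250 bases before the annotated start in RefSeq on GRCr8, a later build than that of the counts. Of the 7 genes, 6 matched an entry, and Hlf had none. Capitals mark the E-box CACGTG, whose letters read the same on both strands. The Ciart window lies on the minus strand at chr2:186112247-186112496 and holds 3 E-boxes. The Tef window lies on the plus strand at chr7:115206577-115206826 and holds 1. The Bhlhe40 window (plus strand, chr4:143174200-143174449) and the Bhlhe41 window (minus strand, chr4:180569356-180569605) hold 1 each. The Dbp window lies on the plus strand at chr1:105312006-105312255 and holds none of these letters. Its sequence is given because Dbp varied most of the 7.
Ciart: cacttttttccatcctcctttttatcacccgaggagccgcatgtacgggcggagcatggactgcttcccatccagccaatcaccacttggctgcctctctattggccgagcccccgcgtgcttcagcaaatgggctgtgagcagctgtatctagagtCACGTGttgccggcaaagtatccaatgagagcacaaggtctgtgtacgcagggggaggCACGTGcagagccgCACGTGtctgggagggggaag
Tef: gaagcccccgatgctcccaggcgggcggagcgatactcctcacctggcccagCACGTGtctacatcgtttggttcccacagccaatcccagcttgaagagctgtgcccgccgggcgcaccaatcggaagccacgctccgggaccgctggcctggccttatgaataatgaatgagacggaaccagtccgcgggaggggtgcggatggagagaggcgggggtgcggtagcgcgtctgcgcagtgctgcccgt
Bhlhe40: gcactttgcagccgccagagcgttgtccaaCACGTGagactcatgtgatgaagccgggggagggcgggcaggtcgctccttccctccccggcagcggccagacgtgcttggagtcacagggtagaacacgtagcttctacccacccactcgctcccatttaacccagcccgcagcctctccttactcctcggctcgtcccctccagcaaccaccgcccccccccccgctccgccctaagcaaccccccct
Bhlhe41: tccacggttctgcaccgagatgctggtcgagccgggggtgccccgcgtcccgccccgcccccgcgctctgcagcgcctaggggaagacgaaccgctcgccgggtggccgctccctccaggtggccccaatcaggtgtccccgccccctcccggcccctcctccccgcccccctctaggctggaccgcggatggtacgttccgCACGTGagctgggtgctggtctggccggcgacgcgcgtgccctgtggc
Dbp: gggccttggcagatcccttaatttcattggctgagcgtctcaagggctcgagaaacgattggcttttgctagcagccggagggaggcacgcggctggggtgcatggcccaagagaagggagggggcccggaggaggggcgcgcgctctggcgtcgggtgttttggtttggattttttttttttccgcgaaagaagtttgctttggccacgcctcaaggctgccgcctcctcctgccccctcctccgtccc

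The E-boxes of Ciart start at positions -93, -35 and -21, counted from the start site. Those of Bhlhe41, Tef and Bhlhe40 start at -48, -198 and -220. Over the 6 matched genes, 4 windows hold CACGTG, against 5.59% of all 33469 promoter windows of that length. The Nfil3 window (plus strand, chr17:12432126-12432375) holds none either. Other motifs were searched on both strands in the same windows: the E-box variant CACGTT, the D-box TTANGTAA, AGGTCA, a half-site of the Rev-erb and Ror receptors, and the cAMP response element TGACGTCA. They matched none of the 6 windows, and over all promoters they occur in 4.07%, 2.04%, 14.1% and 1.59% in that order. A match is a description of the letters and not a bound site. Nothing outside these windows was searched, so a window without a match does not speak for the rest of a gene. Genes with an E-box here stood both among those that did not overlap between atorvastatin plus HCB and HCB (Ciart, Tef, Bhlhe41) and among those that did (Bhlhe40).

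**Figure D1:**
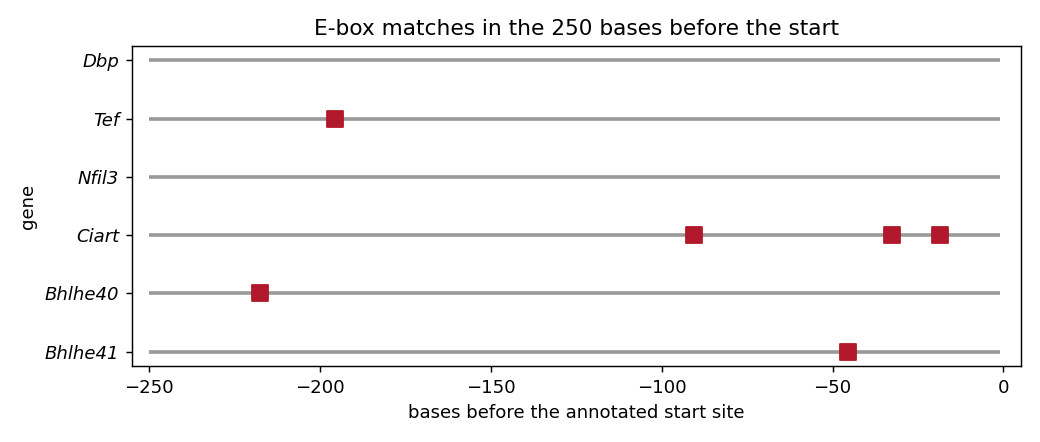
Positions of CACGTG in the 250 bases before the annotated start of 6 clock output genes, on the horizontal axis in bases before the start, with 1 row a gene and 1 square a match. Ciart has 3 matches, all within 93 bases of its start, Tef, Bhlhe40 and Bhlhe41 have 1 each, and Dbp and Nfil3 have none.

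Among the PAR bZIP activators, Dbp (ENSRNOG00000021027, chromosome 1, 96175440 to 96180745, plus strand, mRatBN7.2) had 2.58 and 8.19 CPM in the atorvastatin plus HCB libraries, against 81.4 and 25.6 CPM in the HCB libraries. It had 14.1 and 6.15 CPM in the atorvastatin libraries and 11.5 and 15.7 CPM in the control libraries. Both HCB libraries held more Dbp than any other library, and the atorvastatin plus HCB libraries lay entirely below the control libraries but overlapped the atorvastatin ones. The group means were 5.38 ± 3.96 CPM with atorvastatin plus HCB, 53.5 ± 39.5 CPM with HCB, 10.1 ± 5.64 CPM with atorvastatin and 13.6 ± 2.97 CPM in controls (SD, n = 2 each). The order of these means was HCB, control, atorvastatin and atorvastatin plus HCB. HCB and control did not overlap, while control and atorvastatin did, and so did atorvastatin and atorvastatin plus HCB. The fitted change in atorvastatin plus HCB against HCB was -3.31 ± 0.70 (log2 fold change ± SE).

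The spread of Dbp within a group was large. Its replicates differed 3.17-fold in the atorvastatin plus HCB group and 3.18-fold in the HCB group, so that the nearest libraries of these groups, at 8.19 and 25.6 CPM, lie about as far apart as replicates do. The change stayed below 0 without any of the libraries, between -4.37 without atorvastatin plus HCB replicate 2 and -2.24 without HCB replicate 1. Counting error was a small part of this spread. Over the group there were 234 read pairs with atorvastatin plus HCB and 1765 with HCB, a ratio of 0.109 with an exact 95% interval of 0.0943 to 0.124, which covers counting error only.

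Tef (ENSRNOG00000019383, chromosome 7, 113317283 to 113341783, plus strand), a PAR bZIP activator, had 21.6 and 54.4 CPM with atorvastatin plus HCB, against 66.6 and 66.7 CPM with HCB. It had 39.1 and 25.3 CPM with atorvastatin, against 44.1 and 41.2 CPM in controls. The HCB libraries were the highest of the 8 and nearly equal to each other, while the atorvastatin plus HCB libraries spanned both unexposed groups. The fitted change in atorvastatin plus HCB against HCB was -0.81 ± 0.37, and it rested largely on 1 library: without atorvastatin plus HCB replicate 1 it was -0.28, and without replicate 2 it was -1.62. Hlf (ENSRNOG00000067479, chromosome 10, 75154507 to 75211935, minus strand), the last PAR bZIP member, had 52.2 and 71.6 CPM with atorvastatin plus HCB, against 45.1 and 115 CPM with HCB. With atorvastatin it had 74.4 and 66.5 CPM, against 67.0 and 79.9 CPM in controls. Its lowest and highest libraries were both HCB libraries, so the group with the highest mean (79.9 ± 49.3 CPM, SD, n = 2) contained all others. The fitted change of Hlf was -0.37 ± 0.37, and it was 0.46 without HCB replicate 2.

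Nfil3 (ENSRNOG00000011668, chromosome 17, 12280484 to 12295858, plus strand), the D-box repressor, had 37.5 and 55.5 CPM with atorvastatin plus HCB, against 15.2 and 39.4 CPM with HCB. It had 36.0 and 29.7 CPM with atorvastatin, against 34.6 and 50.2 CPM in controls. HCB replicate 1 was the lowest of the 8 libraries, and it was also the library with the most Dbp and the most Ciart. The fitted change of Nfil3 was 0.77 ± 0.40 in atorvastatin plus HCB against HCB, opposite in sign to those of Dbp, Tef and Hlf. It was 0.24 without HCB replicate 1 and 1.62 without HCB replicate 2.

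Among the E-box repressors, Ciart (ENSRNOG00000042717, chromosome 2, 183419819 to 183423313, minus strand) was close to the limit of detection. It had 2 and 6 reads in the atorvastatin plus HCB libraries, or 0.0501 and 0.135 CPM, against 40 and 26 reads in the HCB libraries, or 1.27 and 0.694 CPM. It had 0.575 and 0.187 CPM with atorvastatin, against 0.406 and 0.332 CPM in controls. The atorvastatin plus HCB libraries were the lowest of the 8 and the HCB libraries the highest. Ciart reached the filter minimum of 0.238 CPM in 5 libraries, none of them from the atorvastatin plus HCB group and 2 from the HCB group, so it was tested through the groups in which it was higher. Its fitted change was -3.34 ± 0.94. Over the group there were 4 read pairs with atorvastatin plus HCB against 33 with HCB, a ratio of 0.0992 with an exact 95% interval of 0.0255 to 0.279 for counting error. The fitted change stayed between -4.20 and -2.82 with single libraries left out.

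Bhlhe41 (ENSRNOG00000048961, chromosome 4, 178834271 to 178838468, minus strand), also a repressor, was as low as Ciart per length of exon. It had 0.251 and 0.315 CPM with atorvastatin plus HCB, from 10 and 14 reads, against 0.950 and 0.694 CPM with HCB, from 30 and 26 reads. It had 0.647 and 1.12 CPM with atorvastatin, against 0.812 and 1.21 CPM in controls. Both atorvastatin plus HCB libraries lay below all 6 other libraries, and the other groups overlapped in part. The fitted change was -1.52 ± 0.65 in atorvastatin plus HCB against HCB, with 12 read pairs against 28, a ratio of 0.351 and an exact 95% interval of 0.163 to 0.712 for counting error. Its paralog Bhlhe40 (ENSRNOG00000007152, chromosome 4, 141618476 to 141624774, plus strand) had 122 and 169 CPM with atorvastatin plus HCB, against 73.5 and 184 CPM with HCB. It had 177 and 132 CPM with atorvastatin, against 69.7 and 248 CPM in controls. Its lowest and its highest library were both controls, and no pair of groups separated. The fitted change of Bhlhe40 in atorvastatin plus HCB against HCB was 0.17 ± 0.56, and it was -0.34 without HCB replicate 1 and -0.08 without atorvastatin plus HCB replicate 2.

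**Figure D2:**
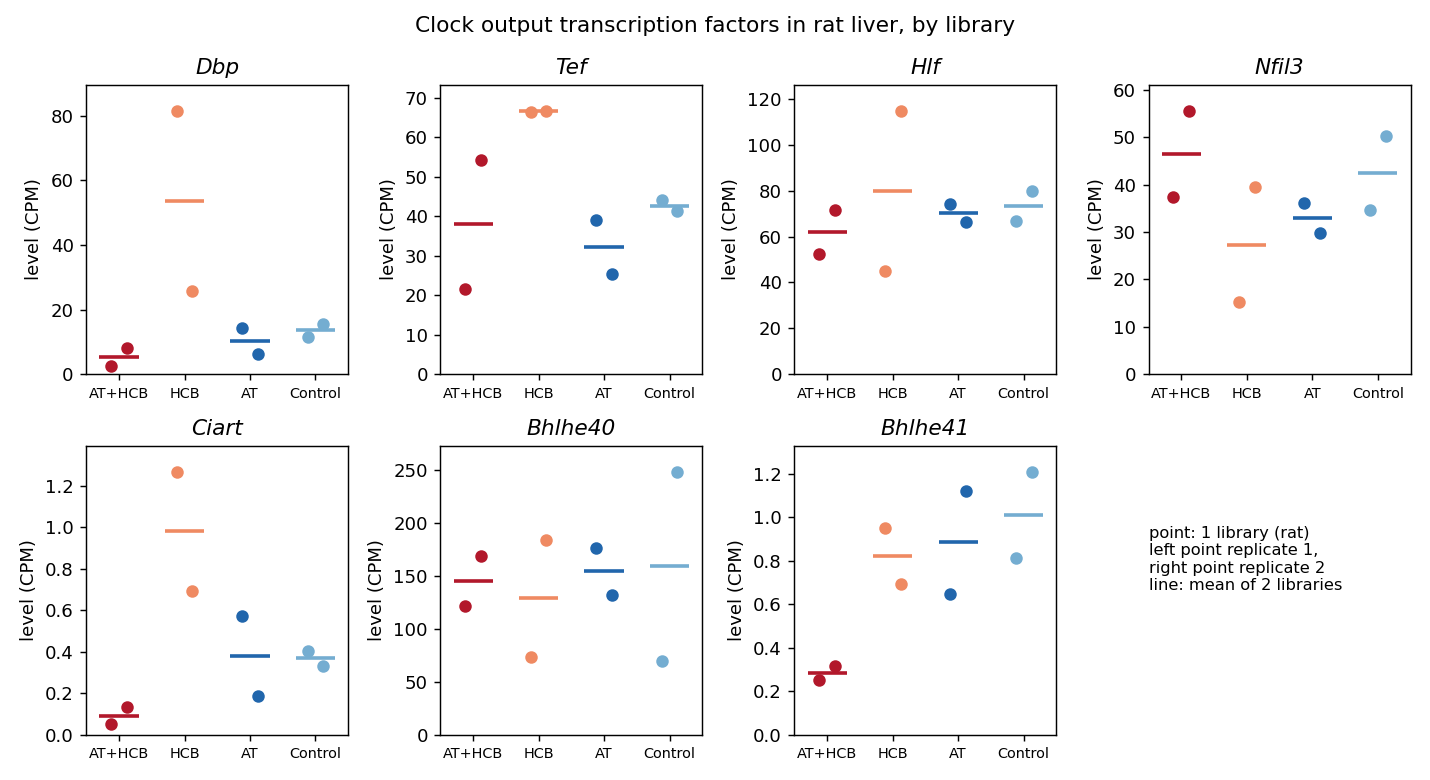
Levels of the 7 clock output genes in CPM (vertical axes from 0), 1 point a library and a line at the mean of the 2 libraries of each group, in livers given atorvastatin plus HCB (AT+HCB), HCB, atorvastatin (AT) or vehicle (Control). The HCB libraries are the highest for Dbp, Tef and Ciart, and the AT+HCB libraries are the lowest for Ciart and Bhlhe41.

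In all, 4 of the 7 genes did not overlap between atorvastatin plus HCB and HCB, each lower with atorvastatin plus HCB. Over all genes tested 34.8% did not overlap, 16.9% being lower with atorvastatin plus HCB and 17.9% higher. Nothing is read from the share among the 7, since this contrast chose them. Their median change was -0.81, against 0.00 over all genes, with 5 of 7 below 0. By edgeR's quasi-likelihood test 0% of all genes tested (0 of 16591) passed an adjusted p of 0.05 in this comparison. A total of 857 genes had an unadjusted p below 0.05, and DESeq2 called 36. Within these groups, B cell markers summed to 1.55 and 2.32 CPM with atorvastatin plus HCB, against 4.24 and 2.72 CPM with HCB, and erythroid markers to 6.67 and 7.29 CPM against 34.5 and 12.8 CPM. Hepatocyte markers summed to 181600 and 159100 CPM with atorvastatin plus HCB, against 112600 and 134300 CPM with HCB, and the stellate and endothelial sums were also higher without overlap. The sums for Kupffer cells, neutrophils, NK and T cells, cholangiocytes, fetal liver and Y-linked genes overlapped. By edgeR 0 markers of any of these lists were called here or in atorvastatin against control, no marker was at 0 reads in all libraries, and the part of these cells in the changes of the 7 genes was not tested. In bulk liver, fewer cells of a type and less RNA per cell cannot be told apart.

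Atorvastatin against control shares no library with the contrast that chose the genes, and it asks whether the statin alone went with a change in the unexposed livers. These livers differed from the HCB-labelled ones in Y-linked and fetal liver genes. Their stellate and fibroblast markers summed to 2816 CPM in atorvastatin replicate 2, against 618.3 to 665.8 CPM in the other unexposed libraries. The part of that difference in the changes below was not tested. By edgeR, 0 of the 7 genes passed, 0 had an unadjusted p below 0.05 and DESeq2 called 0, where 0% of all genes tested were called by edgeR. Over all 16591 genes tested, 181 had an unadjusted p below 0.05 and DESeq2 called 3. Dbp was at -0.42 ± 0.65 (adjusted p = 1, edgeR), with 10.1 ± 5.64 CPM in atorvastatin livers and 13.6 ± 2.97 CPM in control livers (SD, n = 2 each). Ciart was at 0.04 ± 0.84 (adjusted p = 1), with 0.381 ± 0.274 CPM in atorvastatin livers and 0.369 ± 0.0528 CPM in control livers. Tef, at -0.41 ± 0.37, was the only gene of the 7 whose groups did not overlap, lower with atorvastatin, where 21.1% of all genes did not overlap in either direction and 10.5% were lower and 10.6% higher. The other changes were -0.37 ± 0.39 for Nfil3, -0.19 ± 0.61 for Bhlhe41, -0.06 ± 0.37 for Hlf and -0.04 ± 0.56 for Bhlhe40. The median of the 7 was -0.19, against 0.01 over all genes tested. With SEs of this size, changes near those of Tef or Nfil3 were not detectable with 2 libraries a group.

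The HCB-labelled libraries, averaged over atorvastatin and no atorvastatin, were also set against the unexposed ones, a contrast that is orthogonal to the one that chose the genes. Of all genes tested 46.6% were called in it, 21.3% higher and 25.3% lower. Of the 7 output factors 0 were called by edgeR, 0 had an unadjusted p below 0.05 and 0 were called by DESeq2. Over all 16591 genes tested, 8994 had an unadjusted p below 0.05 and DESeq2 called 8040. Overlap between the 4 HCB-labelled and the 4 unexposed libraries is not counted for them, since they were chosen for a difference within the HCB-labelled side. Bhlhe41 came nearest, at -0.97 ± 0.44 (adjusted p = 0.0957, edgeR), with 0.552 ± 0.329 CPM in HCB-labelled livers and 0.947 ± 0.262 CPM in unexposed livers (SD, n = 4 each). Tef was at 0.44 ± 0.26 (adjusted p = 0.187), and it passed without atorvastatin plus HCB replicate 1 (0.73, adjusted p = 0.0231) but was at 0.061 without replicate 2 (adjusted p = 0.845). Dbp averaged 29.4 ± 36.0 CPM in HCB-labelled livers and 11.8 ± 4.18 CPM in unexposed livers (0.54 ± 0.46, adjusted p = 0.363). The same change of Dbp passed when no filter on low counts was used (adjusted p = 0.0307), but it was at 0.034 without atorvastatin plus HCB replicate 2 (adjusted p = 0.959) and at 0.035 without HCB replicate 1 (adjusted p = 0.957). Ciart, Bhlhe40, Nfil3 and Hlf were at -0.29 ± 0.60, -0.20 ± 0.40, -0.07 ± 0.28 and -0.03 ± 0.26, with adjusted p from 0.708 to 0.928. The median of the 7 was -0.07, against -0.11 over all genes.

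Both groups on the HCB side enter that average, and their single values lay apart. In HCB against control, Dbp was at 1.98 ± 0.66, Ciart at 1.40 ± 0.83 and Tef at 0.64 ± 0.37. In atorvastatin plus HCB against atorvastatin, Dbp was at -0.91 ± 0.66, Ciart at -1.98 ± 0.93 and Tef at 0.24 ± 0.37. Bhlhe41 was at -0.30 ± 0.61 in the first and at -1.63 ± 0.65 in the second, and Nfil3 at -0.63 ± 0.39 and 0.50 ± 0.39. These comparisons share libraries with the contrast that chose the genes, so the values carry no test, and the difference between them was not tested for the 7 genes.

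**Figure D3:**
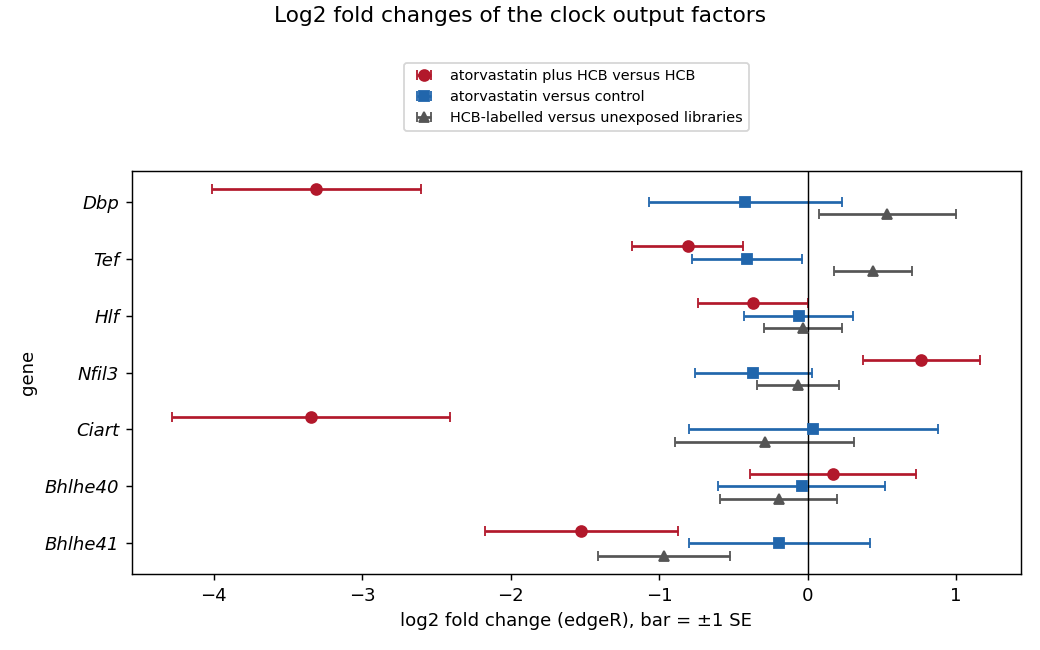
Fitted log2 fold changes of the 7 genes (horizontal axis, bars of 1 SE each way) in atorvastatin plus HCB versus HCB (circles, no test), atorvastatin versus control (squares) and the HCB-labelled versus unexposed libraries (triangles). Dbp and Ciart lie at -3.31 and -3.34 in the first, and all squares lie between -0.42 and 0.04.

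Levels of different genes were compared as CPM per kilobase of exon over all 8 libraries. Bhlhe40 was the highest at 49.4 ± 20.2 (SD, n = 8), and its lowest library, at 23.4, was above the highest library of Hlf, at 21.1. Hlf (13.2 ± 3.86), Nfil3 (11.1 ± 3.66), Tef (10.3 ± 3.88) and Dbp (7.22 ± 8.93) followed, and these neighbours overlapped. Ciart (0.321 ± 0.278) and Bhlhe41 (0.247 ± 0.114) were the lowest and overlapped each other, and the highest Ciart library, at 0.893, was just below the lowest Dbp library, at 0.903. Dbp thus covered the widest span of the 7, 31.5-fold between its highest and lowest library. The SD of its log2 CPM over the 8 libraries was 1.46, that of Ciart was 1.20 and that of Hlf, which varied least, was 0.40. These SDs include the difference between atorvastatin plus HCB and HCB on which the genes were chosen, so they describe the libraries and support nothing further.

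Profiles over the 8 libraries were compared by the root mean square difference of log2 CPM, each gene centred on its own mean, among named genes with a mean of at least 1 CPM. The gene nearest to Dbp was Hsd17b2, an enzyme of steroid hormone inactivation, at 0.466. Nr1d2 (Rev-erb beta, a repressor of the core loop) was at 0.536, followed by Dnajb7 at 0.702, LOC120095464 at 0.855, LOC108349241 at 0.863 and Cd244 at 0.866. Ciart, which is below that level, was at 0.470 from Dbp, and its own nearest genes were Nr1d2 at 0.457, Dbp, and Dnajb7 at 0.483. The distance from Dbp to Tef was 0.951, rank 17 against 12439 genes, and that to Bhlhe41 was 1.14, rank 268. Nfil3 was at 1.72 from Dbp, rank 10650, Bhlhe40 at rank 9345 and Hlf at rank 4832. Such a distance grows with the size of a gene's variation as well as with a difference in its shape. It also includes the contrast that chose the genes, so whether the 7 genes share a profile is not read from it. The distances were smaller among Hlf, Nfil3 and Bhlhe40, at 0.420 between Nfil3 and Hlf, 0.437 between Nfil3 and Bhlhe40 and 0.452 between Hlf and Bhlhe40. Their ranks were mostly far from the nearest genes. From Hlf, Nfil3 ranked 2263 and Bhlhe40 3146, and from Nfil3, Hlf ranked 644 and Bhlhe40 839. From Bhlhe40, Nfil3 ranked 38 and Hlf 61.

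The other members had nearest genes of their own. They were N4bp2l1 (0.158), Lpin2 (0.184) and Cdk5rap1 (0.291) for Tef, and Tmem120b (0.140), Trim37 (0.193) and Rogdi (0.195) for Hlf. For Nfil3 they were Zfp36l1 (0.184), Ikzf3 (0.213) and Pcsk6 (0.216). For Bhlhe40 they were Acot4 (0.270), Jun (0.300) and Haus6 (0.317), and for Bhlhe41 Got1 (0.231), Cpt1a (0.262) and Mcm10 (0.271). All these distances are over the same 8 libraries, and a gene that varies little is near to many others, so they order genes and test nothing.

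The core clock loop, a list of 15 genes that were all tested, was set beside the output factors. In atorvastatin plus HCB against HCB, 0 of the 15 were called by edgeR, where 0% of all genes were. A total of 8 had an unadjusted p below 0.05, and DESeq2 called 2, Bmal1 and Nr1d2. Over all 16591 genes tested, 857 had an unadjusted p below 0.05 and DESeq2 called 36. The groups did not overlap for 8 of 15 (53.3%, against 34.8% of all genes), 4 higher and 4 lower, and the list's median change was 0.00, as over all genes. This list was chosen with earlier results of these data known, so nothing further is read from its share. The smallest p belonged to Npas2, a partner of Bmal1 that can replace Clock, with 35.4 and 3.80 CPM with atorvastatin plus HCB against 1.33 and 0.294 CPM with HCB (4.62 ± 1.05, adjusted p = 0.811). Nr1d2 had 11.7 and 30.5 CPM with atorvastatin plus HCB against 146 and 55.6 CPM with HCB (-2.26 ± 0.55, adjusted p = 0.848), the order of these 4 libraries being that of Dbp.

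The remaining core genes with an unadjusted p below 0.05 are named after their values were seen. Bmal1, the partner of Clock and an activator of Dbp, had 43.4 and 36.1 CPM with atorvastatin plus HCB against 1.99 and 12.0 CPM with HCB (2.50 ± 0.64). Clock averaged 117 CPM with atorvastatin plus HCB against 64.1 CPM with HCB, and the repressor Cry1 40.2 against 20.6 CPM. The period genes Per1 and Per3 averaged 8.40 and 9.21 CPM with atorvastatin plus HCB, against 30.1 and 40.4 CPM with HCB in the same order of genes. The Rev-erb alpha gene Nr1d1 had 7.32 and 4.30 CPM with atorvastatin plus HCB, against 59.6 and 7.69 CPM with HCB, so that its high HCB mean rests on replicate 1. Likewise the lower HCB value of Cry1 was that of replicate 1, at 9.88 CPM, with 31.3 CPM in replicate 2. All 6 had an adjusted p of 0.892 by edgeR. In the HCB libraries, replicate 1 held less Bmal1 and more Dbp than replicate 2, and in the atorvastatin plus HCB libraries replicate 1 held more Bmal1 and Npas2 and less Dbp. Npas2 did not follow this in the HCB libraries, where it was higher in replicate 1. The hour at which each rat was killed is not in the labels used, so its part in any of these differences was not tested.

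In atorvastatin against control, 0 of the 15 core genes were called by edgeR, 0 had an unadjusted p below 0.05 and DESeq2 called 0, with Nr1d1 at -0.84 ± 0.82 and Npas2 at 0.72 ± 0.89. In the HCB-labelled against the unexposed libraries, 5 of 15 were called, where 46.6% of all genes were, with a list median of 0.02 against -0.11 over all genes. Cry1 rose to 30.4 CPM in HCB-labelled livers, against 11.7 CPM in unexposed livers (1.30 ± 0.30, adjusted p = 0.0048, edgeR), and Clock rose by 0.57 ± 0.19 (adjusted p = 0.0301). HCB replicate 1 did not share these rises: its Cry1 (9.88 CPM) and Clock (48.0 CPM) were the lowest of all libraries. The repressors Per1 (-1.30 ± 0.38, adjusted p = 0.0179) and Per3 (-1.73 ± 0.50, adjusted p = 0.0205) and the kinase gene Csnk1e (-0.67 ± 0.20, adjusted p = 0.0166) fell. Per1 and Per3 were lowest with atorvastatin plus HCB, at 5.19 and 11.6 CPM and at 2.08 and 16.3 CPM. The HCB group overlapped the unexposed libraries in both genes. Its Per1 (24.7 and 35.5 CPM) lay above control replicate 1 (16.8 CPM). Its Per3 (38.3 and 42.5 CPM) lay around atorvastatin replicate 2 (40.5 CPM). Csnk1e did not overlap between the HCB-labelled and the unexposed libraries. With single libraries left out, 2 to 5 core genes were called, and Cry1 was among them each time. The count was 3 without atorvastatin plus HCB replicate 1 or HCB replicate 1, and 2 without any of the atorvastatin or control libraries. The output factors thus had 0 of 7 called where the core loop had 5 of 15, and the difference between these shares was not tested.

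**Figure D4:**
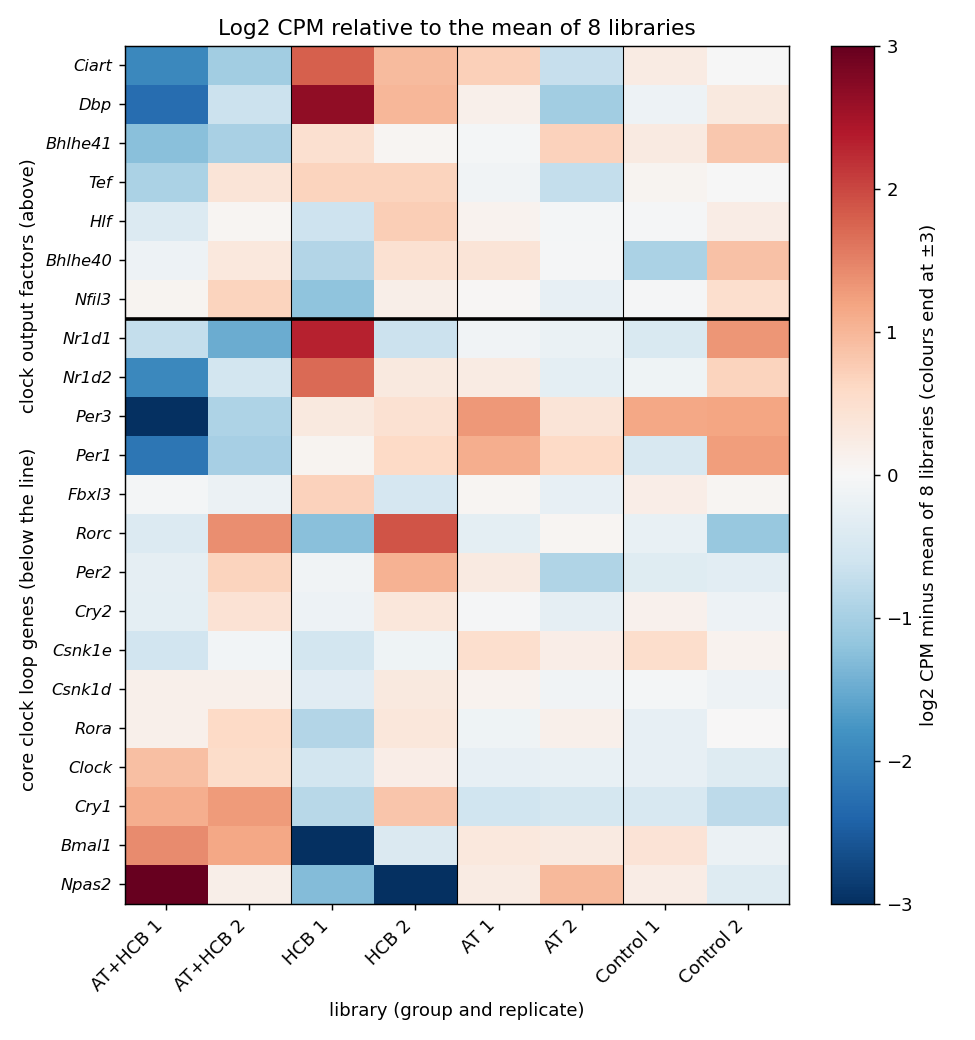
Log2 CPM of the 7 output factors (above the line) and the 15 core clock loop genes (below it) in each of 8 libraries (columns, by group and replicate), relative to each gene's mean over the 8, with colours ending at 3 above and below. Genes are ordered within each block by their change in atorvastatin plus HCB against HCB, from Ciart at -3.34 to Nfil3 at 0.77 and from Nr1d1 at -2.53 to Npas2 at 4.62, and HCB replicate 1 has the highest Dbp and Ciart and the lowest Bmal1.

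A list of 13 genes known as targets of the PAR bZIP factors, mostly from work in mice, was also set beside Dbp, Tef and Hlf. In atorvastatin plus HCB against HCB, 0 of 13 were called, 2 had an unadjusted p below 0.05 and DESeq2 called 0. The groups did not overlap for 8 of 13 (61.5%, 3 higher and 5 lower), where 34.8% of all genes did not overlap (17.9% higher and 16.9% lower), and the median change was 0.13, against 0.00 over all genes. Earlier results of these data were known when the list was chosen, so nothing further is read from that share. The smallest p belonged to Cyp2a3, a cytochrome P450, at 3.47 CPM with atorvastatin plus HCB and 7.15 CPM with HCB (-1.05 ± 0.34, adjusted p = 0.892, edgeR). Por, the electron donor of microsomal cytochromes P450, followed with 132 and 254 CPM with atorvastatin plus HCB against 266 and 589 CPM with HCB (-1.15 ± 0.45, adjusted p = 0.892). In atorvastatin against control, 0 of 13 were called, with Cyp7a1 at -0.88 ± 0.72, Cyp2b1 at -0.66 ± 0.75, 10 of 13 below 0 and a median of -0.17.

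In the HCB-labelled against the unexposed libraries, 11 of the 13 target genes were called, 8 higher and 3 lower, where 46.6% of all genes were called, and their median change was 1.19 against -0.11 over all genes. Cyp7a1, which catalyses the first step from cholesterol to bile acids, rose to 672 CPM in HCB-labelled livers, against 18.1 CPM in unexposed livers (5.15 ± 0.60, adjusted p = 0.000175, edgeR). Cyp2c6v1, a cytochrome P450, rose to 696 CPM in HCB-labelled livers, against 20.6 CPM in unexposed livers (5.07 ± 0.34). The carboxylesterase gene Ces2c (4.94 ± 0.39) and the glutathione transferase gene Gstt1 (3.38 ± 0.20) rose too, the last to 46.0 CPM in HCB-labelled livers, against 4.37 CPM in unexposed livers. The activators Dbp, Tef and Hlf, whose targets these are known as, were not called in that comparison, and neither was the repressor Nfil3. Y-linked, fetal liver and blood cell genes moved across the same divide, and their part in the changes of the target genes cannot be told apart from that of HCB. Leaving out single libraries left 8 to 10 of the 13 called. Cyp2b1, Cyp2c6v1 and Cyp2a3 belong to families of near-identical genes that can share reads, so their values are uncertain.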

How the data were processed

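RNA from 8 rat livers was sequenced, 2 rats in each of 4 groups, with 150 bp paired reads. The submitters' processing notes name fastp 0.23.4, STAR 2.7.10b, DESeq2 1.42.1 and R 4.3.2, and the mRatBN7.2 build. Per the file headers, the deposited counts are whole-number reads per gene over exons, made with featureCounts 2.0.6 on Ensembl release 111, with no option for strand, read pairs or multimapping reads. Mates therefore appear to be counted singly, and intervals on counts use halved counts as read pairs. None of the 7 genes overlaps another annotated gene. The table was used whole, with 0 columns left out, and its 4367 genes without a symbol were kept in the fit.

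Counts were tested with edgeR 4.0.16 in R 4.3.3: TMM normalisation, filterByExpr, and the robust quasi-likelihood test fitted to all 4 groups together, with 4 residual degrees of freedom. Adjusted p-values are Benjamini-Hochberg values over 16591 genes, called below 0.05. The common biological coefficient of variation was 0.295. CPM use the TMM-normalised library size, and log2 CPM a prior count of 2. Group values are mean ± SD, and the spread is that between 2 rats. Gene positions are on mRatBN7.2, and promoter windows come from RefSeq on GRCr8.

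The members and the lists (core clock loop, PAR bZIP targets, rhythmic liver genes, glucocorticoid-responsive genes and cell markers) were chosen with earlier results of these data known. All 7 members are named in each comparison. From each list up to 4 genes past the threshold with the smallest p are named, or 2 where none passed. Core clock genes beyond that number were named after their values were seen. The nearest 6 profiles are named for Dbp and 3 for each other member. Lists are described by counts and medians only. The steps were tested on simulated counts. The alternatives tried were no filter, DESeq2 1.42.0, DESeq2 size factors within edgeR, a filter of 1 CPM in 2 libraries, no robust estimation, a replicate block, halved counts, 2 groups alone, and each library left out. Other software was Python 3.11.15, version 1.17.8 of data.table and, for figures, matplotlib 3.10.9.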

Additional observations from a re-analysis of the deposited data

How the results depend on the processing

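With 2 libraries a group, 1 library sets much of a value. In atorvastatin plus HCB against HCB, 0 genes were called by edgeR, 36 by DESeq2, 179 without a filter on low counts, and 0 to 6 with single libraries left out. The 6 came without atorvastatin plus HCB replicate 2 or without HCB replicate 2. In atorvastatin against control the counts were 0, 3, 76 and 0 to 33, the 33 without atorvastatin replicate 1. In the HCB-labelled against the unexposed libraries 7728 genes were called, and 5813 to 7464 with single libraries left out. Of the core clock loop, 0 genes were called in atorvastatin plus HCB against HCB, against 6 without a filter, 2 without atorvastatin plus HCB replicate 2 (Per3, Npas2) and 1 without HCB replicate 2 (Bmal1). Dbp, Tef, Ciart and Bhlhe41 stayed lower in atorvastatin plus HCB than in HCB under all alternatives that gave a value, and Nfil3 higher; the filter of 1 CPM removed Ciart.

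Signs near 0 turned with single libraries left out. In atorvastatin against control the ranges were -1.14 to 0.052 for Dbp, -0.19 to 0.074 for Hlf, -0.97 to 0.63 for Ciart, -0.69 to 1.15 for Bhlhe40 and -0.65 to 0.15 for Bhlhe41. In the HCB-labelled against the unexposed libraries they were -0.44 to 0.26 for Hlf, -0.49 to 0.23 for Nfil3, -0.69 to 0.21 for Ciart and -0.60 to 0.43 for Bhlhe40. With halved counts Ciart was at -0.011 in atorvastatin against control. The cause was not tested.

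Replicate numbers were not treated as pairs in the main fit. Deviations of same-numbered libraries correlated at 0.0545 between atorvastatin plus HCB and HCB, and at 0.269 between atorvastatin and control. In the other pairs of groups the correlations were between -0.0509 and -0.00589. The atorvastatin and control libraries of replicate 1 also had more reads outside exons (34.0% and 27.7%) than those of replicate 2 (19.5% and 15.3%). With a replicate block the counts were 0, 0 and 7548, and in atorvastatin against control Ciart was at -0.053 and Bhlhe40 at 0.25.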

Other observations

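A list of 11 tested genes that are known to cycle in rodent liver gave 0 calls by edgeR in atorvastatin plus HCB against HCB (3 at an unadjusted p below 0.05, 0 by DESeq2), with 8 of 11 below 0 and a median change of -0.50 against 0.00 over all genes. Earlier results of these data were known when this list was chosen, so nothing further is read from these counts. Upp2, a uridine phosphorylase of liver, had 1.73 and 3.37 CPM with atorvastatin plus HCB, against 52.8 and 6.52 CPM with HCB (-3.53 ± 0.84, adjusted p = 0.848), and its high HCB mean comes from replicate 1. The cell cycle inhibitor Cdkn1a had 20.9 and 15.5 CPM with atorvastatin plus HCB, against 2.53 and 10.8 CPM with HCB (1.44 ± 0.53, adjusted p = 0.892). In atorvastatin against control 0 of 11 were called (3 unadjusted, 0 by DESeq2). Gys2, the glycogen synthase of liver, was at -1.08 ± 0.26 (adjusted p = 1), with 56.3 CPM in atorvastatin livers and 119 CPM in control livers, and the transcription factor gene Klf10 at 0.97 ± 0.38 (adjusted p = 1). In the HCB-labelled against the unexposed libraries 6 of 11 were called, where 46.6% of all genes were. The G protein regulator Rgs16 fell (-3.89 ± 0.32, adjusted p = 5.2e-06), and Usp2, a deubiquitinase (2.48 ± 0.33), the vasopressin receptor gene Avpr1a (1.57 ± 0.23) and Nampt, an enzyme of NAD synthesis (1.36 ± 0.26), rose.

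Among 10 glucocorticoid-responsive genes, all 10 were below 0 in atorvastatin plus HCB against HCB, with a median of -0.69 against 0.00 over all genes. By edgeR 0 were called (4 at an unadjusted p below 0.05, 0 by DESeq2). The groups did not overlap for 5 of 10 (50%, all lower), where 34.8% of all genes did not overlap and 16.9% were lower. The list was chosen with earlier results of these data known, so nothing further is read from the shared direction. Tsc22d3 averaged 56.9 CPM with atorvastatin plus HCB and 108 CPM with HCB (-0.92 ± 0.25, adjusted p = 0.892), and the metallothionein gene Mt1 49.2 CPM and 217 CPM in that order (-2.14 ± 0.63, adjusted p = 0.892). In atorvastatin against control 0 of 10 were called (0 unadjusted, 0 by DESeq2), with Mt2A at -0.76 ± 0.67 and Pck1 at -0.28 ± 0.41. In the HCB-labelled against the unexposed libraries 6 of 10 were called, 3 higher and 3 lower, where 46.6% of all genes were called (21.3% higher and 25.3% lower). Tsc22d3 rose by 1.45 ± 0.18, while Mt1 (-2.79 ± 0.46), Mt2A (-3.07 ± 0.51) and Fkbp5 (-1.15 ± 0.22) fell.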
